A study of Mus musculus with 12 samples.

Results

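The cells described here are those that the authors' deposited annotation placed in cluster 1 and labelled T cells. They numbered 7544 of the 45477 annotated cells (16.6%), with 1297, 1016 and 1683 cells in control mice 1 to 3 and 890, 1469 and 1189 in CAL-101 mice 1 to 3. Cluster 1 also held cells under other labels (131 NK cells, 123 CD8+ T cells, 57 CD4+ T cells and 7 basophils), which were left out. The comparison population was the T-labelled cells of clusters 2 to 5, which numbered 6446, 5951, 4425 and 3916.

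The 6 mice were B6.129S7-Rag1tm1Mom/J animals (RAG-KO), which lack mature T and B lymphocytes, bearing B16-F10 melanoma placed in the skin by intradermal injection. Each received 1000000 CD8+ T cells of Pmel Thy1.1 donors through the retro-orbital route, and Pmel cells carry a T cell receptor against a melanocyte antigen shared by the tumour. In 3 mice the transferred cells had been exposed in vitro to CAL-101, also called idelalisib, which blocks the catalytic subunit p110 delta of phosphoinositide 3-kinase (PI3K), and in the 3 control mice to vehicle. Live CD45.2+ cells sorted from resected tumours were profiled with droplet 3′ RNA sequencing and a panel of 102 barcoded antibodies. The labels name the drug only for the cells before transfer, CD45.2+ sorting also keeps the host's own leukocytes, and each group rests on 3 animals whose age and sex the labels do not state.

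PI3K delta carries signals from the T cell receptor and from costimulatory receptors to the kinase AKT, which keeps FOXO transcription factors out of the nucleus. FOXO1 supports genes of memory and lymph node homing, and strong receptor signalling drives the effector programme of granzymes and perforin. In droplet data, the number of RNA molecules and the mitochondrial share of a cell vary with its size, its integrity and the capture in its droplet.

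The cells of cluster 1 carried T cell markers. They had been kept by their T cell label, so these markers describe the selection and do not test it. After each cell was thinned to 1600 RNA UMIs (unique molecular identifiers, each counting 1 captured molecule), Trbc2, the constant region of the T cell receptor beta chain, had a UMI in 99% of cells, Cd8a in 38.3% (32.6% to 41.9% over mice), Lck, the kinase that starts receptor signalling, in 37.6% and Cd3e in 35.7%. The same shares in clusters 2 to 5 were 99.6%, 45.5%, 32.9% and 47.1%. In neutrophils, which should lack these genes, they were 74.5%, 7.75%, 3.5% and 7.5% (95% Wilson interval for Cd3e, 5.30% to 10.5%, 400 cells, counting error only). Trbc2 was thus also frequent where it should be absent, whereas Cd3e, Cd8a and Lck stood well above that background. Without thinning, the shares of Cd3e were 54.2% in cluster 1, 91.1% in clusters 2 to 5 and 13.5% in neutrophils. Cells under 1600 UMIs, left out of these shares, were 417 of 3996 in control mice, 364 of 3548 in CAL-101 mice and 14 of 414 neutrophils, whose median was 3175.5 UMIs. S100a8, which marks neutrophils, had a UMI in 0.2% of cluster 1 cells against 93.8% of neutrophils. Summed over all its cells, cluster 1 held 0.46 CPM (UMIs of a gene in each 1000000 UMIs) of Lyz2 of macrophages, 0.58 CPM of Cd4 and 2.50 CPM of Ncr1 of NK cells. CD90.2 is the host form of the Thy1 protein, which Thy1.1 donor cells lack. It took 0.044% to 0.079% of antibody tags in the 6 mice, below the highest isotype control antibody at 0.083%.

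Cluster 1 cells held few RNA molecules. Their median was 2861.5 UMIs and 1431 genes a cell, against 25741.5 UMIs in cluster 2, 14669 in cluster 3, 4791 in cluster 4 and 13695 in cluster 5. The 5th and 95th percentiles were 1357 and 8151 UMIs, and 81.9% of the cells held under 5000 UMIs, against 13.1% in clusters 2 to 5. The median mitochondrial share was 13% of UMIs, against 3.08%, 2.90%, 16.2% and 3.14% in clusters 2, 3, 4 and 5, and the ribosomal protein share was 8.54%, against 22.7%, 24%, 7.01% and 23.4%. A mitochondrial share over 10% was found in 66.8% of cluster 1 cells and 19.1% of those in clusters 2 to 5. In these 3 measures cluster 4 was the nearest neighbour.

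Relative to RNA, antibody tags were high. Cluster 1 held 46.7 tags for each 100 RNA UMIs, against 10.4, 13.8, 39.8 and 12.8 in clusters 2 to 5. In absolute number its tags were the fewest. The per-mouse median averaged 1545 tags a cell, against 2664, 2026, 2267 and 1737 in clusters 2, 3, 4 and 5. When the cells of each mouse were divided at their median UMI number, the lower part had a median mitochondrial share of 13.8% to 18.0% over mice and the upper part 8.02% to 12.5%, so that both parts stayed above the medians of clusters 2, 3 and 5.

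**Figure D1:**
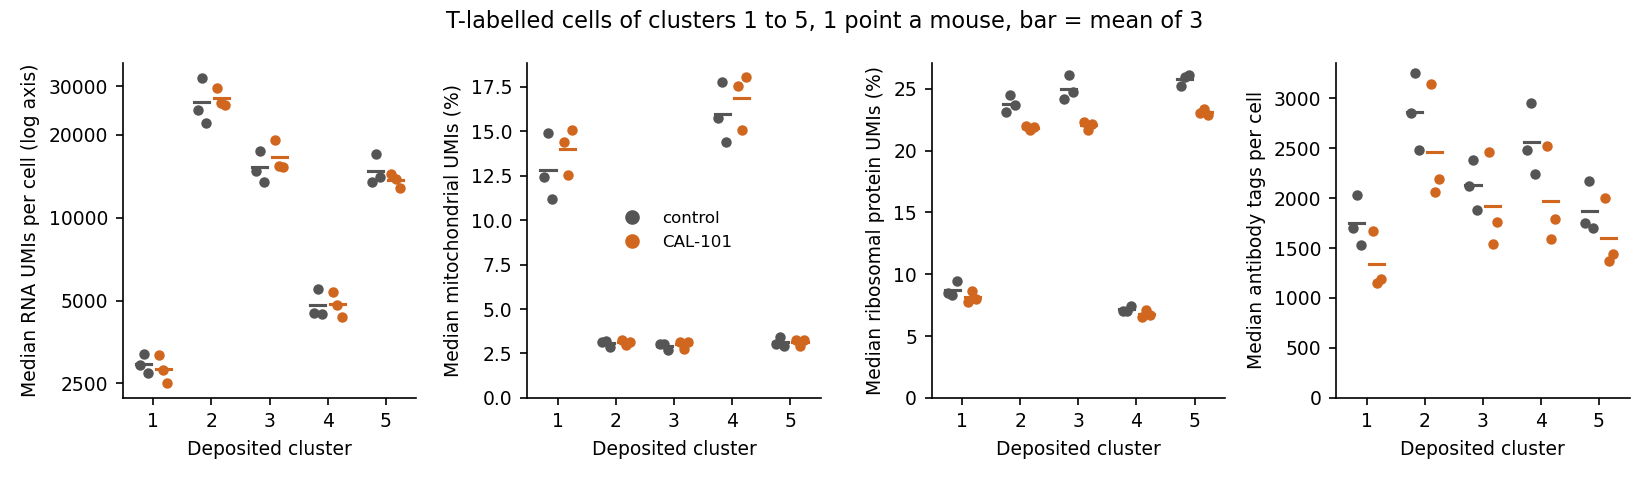
RNA UMIs, mitochondrial share and further per-cell measures (vertical axes, with their units on each panel) for deposited clusters 1 to 5, with 1 point a mouse. Cluster 1 had the fewest UMIs, and clusters 1 and 4 stood together at high mitochondrial and low ribosomal protein shares.

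By the median cell of each mouse, no measure of depth or composition separated CAL-101 from control mice. The per-mouse median was 2921, 3203.5 and 2719 UMIs in control mice 1 to 3 and 3159.5, 2804 and 2518 in CAL-101 mice 1 to 3, a mean of 2948 ± 243 (SD, n = 3) against 2827 ± 321 (SD, n = 3). The ranges overlapped, with an exact two-sided permutation p of 0.7, where 3 mice against 3 cannot give less than 0.1. The mitochondrial share was 12.8% ± 1.88 in control and 14% ± 1.32 in CAL-101 mice (SD, n = 3 each, exact permutation p = 0.4), and antibody tags were 1754 ± 250 against 1336 ± 289 a cell (exact permutation p = 0.2). At 1600 UMIs a cell, 944.3 and 943.7 genes were detected (exact permutation p = 1). The median ribosomal protein share was 8.76% ± 0.61 in control and 8.13% ± 0.45 in CAL-101 mice (SD, n = 3 each), a difference of -0.63 percentage points (exact permutation p = 0.3). As the mean over cells that difference was -1.61 points and the groups did not overlap (exact permutation p = 0.1, the smallest this design allows), and it was -2.26 points (exact permutation p = 0.2) without cells over 10% mitochondrial or under 1000 UMIs.

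The share of cluster 1 among the T-labelled cells of clusters 1 to 5 was 24.7%, 31.5% and 30.4% in control mice 1 to 3 and 27.3%, 25% and 23.1% in CAL-101 mice 1 to 3. The means were 28.9% ± 3.65 and 25.1% ± 2.08 (SD, n = 3 each), a difference of -3.79 percentage points (exact two-sided permutation p = 0.3), and the groups overlapped. As a share of all cells of a mouse the sign turned, with 15.6% in control and 17.4% in CAL-101 mice (exact permutation p = 0.5). No difference in abundance was therefore detectable with 3 mice a group.

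The RNA of cluster 1 was compared with that of clusters 2 to 5 as a description only, because the clusters were made from these same genes. Of 4053 genes at 50 CPM or more, 2225 (54.9%) were higher in cluster 1 in all 6 mice and 1530 (37.7%) were lower in all 6. With a mean ratio of 2-fold or more and the same sign in all 6 mice there were 287 higher genes and 722 lower ones. All 13 protein-coding mitochondrial genes were among the 287, and 50 of the 81 ribosomal protein genes were among the 722. Numbered gene models (Gm and Rik names) made up 9.41% of the 287, against 1.83% of all 4053 genes.

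Genes for the cytoplasmic and translational machinery were low. All 26 nuclear genes of the respiratory chain, all 20 cytoskeletal genes and 82 of 83 ribosomal protein genes at 20 CPM or more were lower in all 6 mice, with median log2 ratios of -1.27, -1.09 and -1.04, where 37.0% of all genes at that level were lower. Tmsb4x, which binds actin monomers, stood at 4073 CPM in cluster 1 and 10964 CPM in clusters 2 to 5, Actb at 2393 against 6509 CPM, the glycolytic enzyme gene Gapdh at 738 against 2495 CPM and Rplp0 of the ribosomal stalk at 1982 against 4645 CPM. The mitochondrial transcripts ran the other way, with mt-Co1 at 24222 against 7564 CPM. The glycolysis list, to which Gapdh belongs, divided. Of its 15 genes at 20 CPM or more 9 were lower and 5 higher in all 6 mice (median log2 ratio -0.69). Over all genes at that level the shares were 37.0% lower and 50.9% higher.

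Transcripts that are held in the nucleus were high. All 4 such genes of the list were higher in all 6 mice, with a median log2 ratio of 1.29, where 50.9% of all genes were higher. Malat1, a long noncoding RNA of nuclear speckles, stood at 14023 CPM in cluster 1 and 4588 CPM in clusters 2 to 5, and Neat1, the scaffold of paraspeckles, at 119 against 56.7 CPM. Apart from mitochondrial genes, the largest named ratios were those of Oprm1, the mu opioid receptor gene (64.5 against 15.7 CPM, mean log2 1.97), Insyn2b (99.4 against 25 CPM, 1.94), Slc24a1, a cation exchanger gene (126 against 35.6 CPM, 1.79), and Kdm5b, a histone H3 lysine demethylase gene (61.7 against 18.8 CPM, 1.68). Ccnd3, the D-type cyclin of T cells, was at 533 against 186 CPM (1.47), and the demethylase gene Kdm7a had the same mean log2 ratio. Cluster 4 taken singly was nearer for several of these. It held Malat1 at 10954 CPM, Insyn2b at 84.5, Slc24a1 at 108 and Oprm1 at 35.9 CPM, but Kdm5b at 14.7 CPM.

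Genes of T cell state divided, beside shares over all genes at 20 CPM or more of 50.9% higher and 37.0% lower in all 6 mice. The median log2 ratio over the 4053 genes at 50 CPM or more was 0.30, beside which the list medians should be read. Of 13 progenitor and memory genes 11 were higher in cluster 1 in all 6 mice and none lower, with a median log2 ratio of 0.83, and Tcf7, the transcription factor of memory and stem-like T cells, was at 69.6 against 42.6 CPM. Of 18 PI3K and FOXO genes 14 were higher and 1 lower (median 0.80). Of 16 effector genes 4 were higher and 7 lower (median -0.28), the lower ones near the share over all genes, with Gzmb, a granzyme of killing granules, at 661 against 1454 CPM. Of 15 genes of the T cell receptor complex and its signalling 5 were higher and 10 lower (median -0.36): Trac was at 209 against 344 CPM and the adaptor Lat at 96.3 against 182 CPM, whereas Lck was at 304 against 243 CPM. Against cluster 4 alone the summed shares of UMIs were higher for all these lists in all 6 mice. The mean log2 ratios were 0.34 for progenitor, 0.28 for PI3K and FOXO, 0.23 for effector and 0.17 for receptor genes. To clusters 2, 3 and 5 the effector list was at -0.28, -1.14 and 0.29. The receptor list was at -0.13, -0.38 and -0.41.

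Cell division genes were low. All 19 proliferation genes were lower in all 6 mice, with a median log2 ratio of -2.27, where 37.0% of all genes at 20 CPM or more were lower. The histone gene Hist1h1b stood at 51.4 CPM in cluster 1 and at 724, 51.0, 220 and 53.5 CPM in clusters 2, 3, 4 and 5, and Ccna2, the cyclin of S phase and mitotic entry, at 8.86 CPM and at 115, 9.82, 55.6 and 15.2 CPM. Mki67, the proliferation marker, was at 50.9 CPM against 415, 46.9, 557 and 64.5 CPM. For Hist1h1b and Mki67 cluster 1 was thus near clusters 3 and 5. As a summed share of UMIs, however, the proliferation list was lower in cluster 1 than in each other cluster in all 6 mice, at a mean log2 ratio of -2.78, -0.78, -1.96 and -1.13 to clusters 2, 3, 4 and 5. At 1600 UMIs a cell, 7.46% of cluster 1 cells had an Mki67 UMI, against 29.2% in clusters 2 to 5 and 3.25% of neutrophils, and without thinning 14% and 66.1% in the T cells and 7.49% of neutrophils.

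Cluster 4 was the nearest in RNA. The median absolute log2 ratio over the 4053 genes was 0.179 to cluster 4, against 0.839, 0.745 and 0.751 to clusters 2, 3 and 5, and 2.84% of genes were 2-fold apart from cluster 4, of which 6 were higher and 109 lower in cluster 1. As summed shares of UMIs, cluster 1 lay within -0.27 and 0.24 on the log2 scale of cluster 4 for mitochondrial, nuclear-retained, ribosomal protein, respiratory chain and cytoskeletal genes, but at -1.96 for proliferation genes. The genes most apart from cluster 4, picked after their values were seen, included the DNA repair gene Neil3 (3.01 against 63.6 CPM), the kinesin gene Kif4 (9.44 against 148 CPM) and the formin gene Diaph3 (75.8 against 614 CPM). Kdm5b (61.7 against 14.7 CPM), Ccnd3 (533 against 257 CPM) and the chemokine gene Ccl5 (662 ± 406 against 173 ± 95, SD over 6 mice) were higher in cluster 1.

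**Figure D2:**
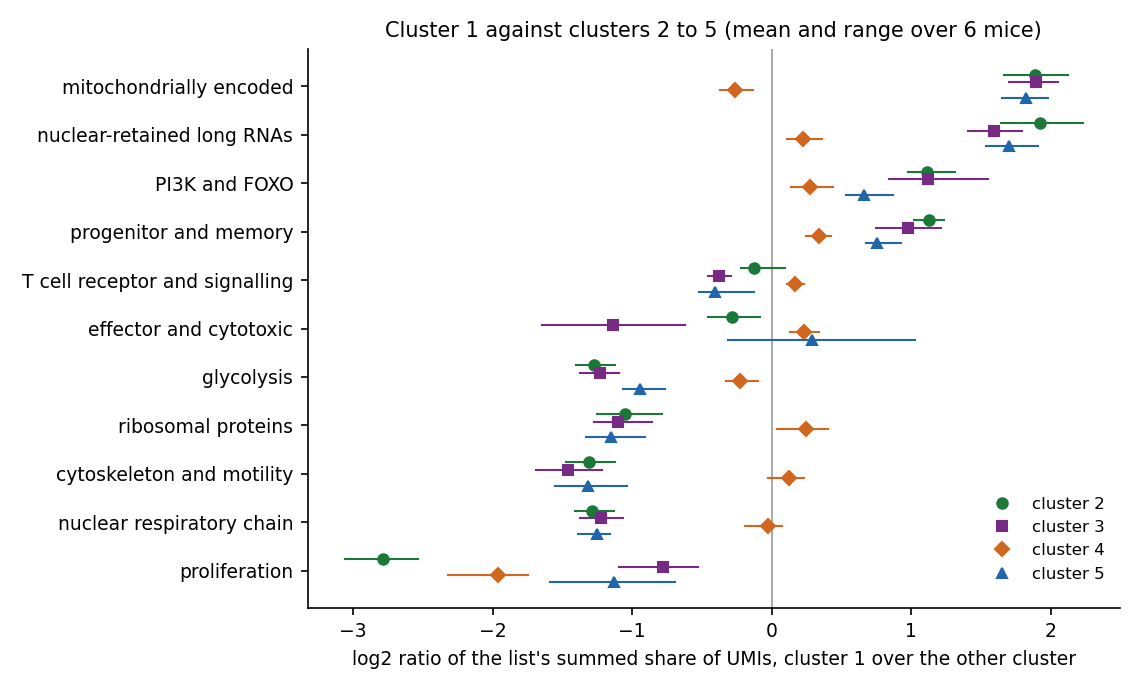
Log2 ratio of the summed share of UMIs of each gene list (horizontal axis) in cluster 1 over cluster 2, 3, 4 or 5, as the mean and range over 6 mice. Against cluster 4 the lists of RNA quality lay within -0.27 and 0.24 and proliferation at -1.96, whereas against clusters 2, 3 and 5 mitochondrial genes lay at 1.88, 1.89 and 1.82.

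The antibody shares of cluster 1 were set beside those of clusters 2 to 5, again as a description. Of 102 antibodies 62 took a higher share of tags than in clusters 2 to 5 in all 6 mice and 12 a lower share, but 6 of the 7 isotype controls, which bind no mouse antigen, were also higher in all 6 mice, by a mean log2 of 0.20 to 0.41. The lower ones were led by CD25, the interleukin 2 receptor alpha chain (0.780% of tags against 1.09%, mean log2 -0.49), and CD98, an amino acid transporter chain of growing cells (2.84% against 3.93%, -0.45). Cluster 5 taken singly was lower still for both. CD25 took 1.25%, 1.07%, 1.21% and 0.571% of tags in clusters 2, 3, 4 and 5. CD98 took 4.49%, 3.73%, 4.22% and 2.72%. Among the other antibodies CD170 (0.42) and MERTK (0.38) had the highest ratios, followed by CD117, F4/80 and CD169 (0.35 each) and CD73 (0.34), all within or near the range of the isotype controls. CD3 took 0.493% of tags in cluster 1 and 0.488% in clusters 2 to 5, and CD8a 6.68% and 7.18%.

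CAL-101 was then compared with control inside cluster 1 on the summed counts of each mouse with edgeR's quasi-likelihood test and Benjamini-Hochberg adjustment, from which all adjusted p-values that follow come unless another tool is named. Of 11509 genes tested 1341 passed an adjusted p of 0.05 (11.7%), with 645 higher (5.6%) and 696 lower (6.05%) in CAL-101 mice, and 30.9% of tested genes had no overlap between the groups' mice. Cells that had been cultured with CAL-101 held less of the granzyme and perforin programme and more of Tox, Tcf7 and Slamf6. The same contrast in clusters 2 to 5 called 2700 of 16087 genes (16.8%) in the same mice, 8.23% higher and 8.55% lower. Because each group is a sum over cells, fewer cells with a transcript and fewer molecules in each cell cannot be told apart.

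The effector list fell. Of 18 members tested 13 were lower, none was higher and the median log2 change was -1.41, where the median of all tested genes was 0.004 and 6.05% of genes were called lower; leaving out any mouse left 13 to 15 lower. Gzma, a granule protease, was at 635, 691 and 739 CPM in control mice 1 to 3 and at 80.4, 22.4 and 33.9 CPM in CAL-101 mice 1 to 3 (log2 -3.98 ± 0.34 SE, adjusted p = 6.36e-05). Serpinb9b, a serpin of the granzyme inhibitor family, was at 58.3, 55.8 and 54.1 CPM against 4.8, 2.14 and 5.84 CPM (-3.82 ± 0.22, adjusted p = 6.48e-06). Gzmb was at 1067, 660.1 and 1191 CPM against 241, 434 and 374 CPM (-1.51 ± 0.22, adjusted p = 0.0019). For these 3 genes every control mouse stood above every CAL-101 mouse.

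Gzmd, Gzme, Gzmf and Gzmg fell by 3.11, 3.10, 3.44 and 3.22 on the log2 scale, but these genes are near-identical copies and reads could be divided among them. Prf1, which encodes the pore protein perforin, fell by 1.31 (adjusted p = 0.000475) and Ccl5 by 1.56 (adjusted p = 0.00192). Nkg7, Tbx21 and Prdm1 were not called, at -0.27, 0.08 and 0.19. Free RNA moved too: in neutrophils Gzma stood at 316 CPM in control and 40.3 in CAL-101 mice and Gzmb at 254 and 113 CPM, and their part in the change within cluster 1 was not tested. At 1600 UMIs a cell, Gzma had a UMI in 44.1% of cluster 1 cells and 26.3% of 304 neutrophils in control mice, and in 7.5% of cluster 1 cells and 5.21% of 96 neutrophils in CAL-101 mice. The share in CAL-101 mice was thus near background. The NK marker list, which contains Gzma, summed to 802 to 940 CPM in control and 166 to 242 CPM in CAL-101 mice, with no member at 0, and Klrb1c of that list, at 11.9, 12.1 and 20 against 4.52, 2.33 and 4.17 CPM, fell as well (-2.09, adjusted p = 0.0018).

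Csf1, Ccr2, Ifitm2 and Anxa1 are 4 further named genes that fell, and they form no list that was tested. Csf1, the macrophage growth factor, was at 164, 146 and 185 CPM in control and 39.5, 59.9 and 39.5 CPM in CAL-101 mice (-1.85 ± 0.15, adjusted p = 4.6e-05), although neutrophils held more of it in CAL-101 mice (535 and 951 CPM). Ccr2, a chemokine receptor of inflamed tissue, was at 90.4, 65.4 and 86.9 against 22.3, 37.3 and 27.2 CPM (-1.49 ± 0.17, adjusted p = 0.000339). Ifitm2, a membrane protein of the antiviral response, was at 271, 255 and 299 CPM against 44.9, 89.8 and 55.0 CPM (-2.14 ± 0.19, adjusted p = 7.32e-05). Anxa1, an anti-inflammatory annexin, fell by 2.87. None of the 4 overlapped between the groups.

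Progenitor and memory genes went both ways. Of 18 tested 7 rose and 5 fell, with a median log2 change of 0.41, against 5.6% and 6.05% of all genes. Tcf7 was at 29.2, 36.6 and 22.2 CPM in control and 148, 89.2 and 92 CPM in CAL-101 mice (1.89 ± 0.22 SE, adjusted p = 0.000456). Slamf6, which encodes the receptor Ly108 of progenitor exhausted cells, was at 18.6, 24.5 and 14 against 77.1, 46.7 and 65.6 CPM (1.71 ± 0.22, adjusted p = 0.000812). The chemokine receptor Cxcr3 was at 26.2, 30.1 and 24.1 against 57.3, 61.1 and 70.3 CPM (1.21 ± 0.12, adjusted p = 0.000173). Id3, an inhibitor of E protein transcription factors, rose by 2.52. Lef1, a partner of Tcf7, fell instead, from 187, 108 and 171 to 81.9, 79.7 and 92.8 CPM (-0.91 ± 0.17, adjusted p = 0.00579), and so did Ccr7 (-1.26, adjusted p = 0.0311), for which control mouse 2 stood apart at 740 CPM against 314 and 260 in the other controls and 158 to 227 in CAL-101 mice; without that mouse Ccr7 was at -0.65 and still called, and without CAL-101 mouse 2 or 3 it was not.

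Of 16 exhaustion genes 1 rose and 1 fell, with a median of 0.02, where 5.6% of all genes rose and 6.05% fell, so the list stood near the share over all genes. Tox, the transcription factor that sustains exhausted T cells, was the member that rose. It was at 318, 391 and 281 CPM in control mice 1 to 3 and at 1842, 1002 and 1357 CPM in CAL-101 mice 1 to 3 (2.06 ± 0.21, adjusted p = 0.000171), with a gap between the groups. Pdcd1, the gene of PD-1, was at 189, 160 and 195 against 197, 174 and 205 CPM (0.05 ± 0.10, adjusted p = 0.81), and the groups overlapped. Havcr2, the gene of TIM-3, was not called (-0.50, adjusted p = 0.232), but was called at -0.79 without control mouse 2, which stood low at 51.0 CPM beside 107 and 125. Lag3 fell by 0.53 (adjusted p = 0.038) and was called in 9 of 14 settings; the call was lost without control mouse 1 or any 1 of the CAL-101 mice.

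Genes of the drug's own pathway moved in both directions: 4 of 21 PI3K and FOXO genes rose and 3 fell, with a median of -0.06, against 5.6% and 6.05% of all genes. Inpp4b, a phosphatase that removes a PI3K product, was at 2194, 2753 and 2196 CPM in control and 4654, 4677 and 4313 CPM in CAL-101 mice (0.90 ± 0.12, adjusted p = 0.000792). Foxo1 rose by 0.47 (adjusted p = 0.00516). Pik3r1, a regulatory subunit of PI3K, fell by 0.70 (adjusted p = 0.00326), and Pik3ip1, an inhibitor of PI3K, was at 20, 17.4 and 16.7 against 8.75, 9.14 and 9.73 CPM (-1.0 ± 0.16, adjusted p = 0.00265). Pik3cd, the gene of the drug's target, stood at -0.05 and was not called.

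Of 15 BCL2 family and death genes 3 rose and none fell, where 5.6% of all genes rose and 6.05% fell. Bcl2, which blocks mitochondrial apoptosis, was at 689, 669 and 654 against 987, 980 and 1051 CPM (0.56 ± 0.08, adjusted p = 0.00197). Cd5, a brake on receptor signalling, was at 76.9, 64.1 and 75.5 against 142, 141 and 167 CPM (1.02 ± 0.10, adjusted p = 0.000161). Neither gene overlapped between groups. Of 24 activation genes 5 rose, among them the AP-1 genes Jun (0.90) and Batf (1.08), and 2 fell, among them Tnfrsf18, the gene of the costimulatory receptor GITR (247, 328 and 282 against 165, 143 and 125 CPM, -1.02 ± 0.13, adjusted p = 0.000753), beside the same shares over all genes. Ifng was at 232, 321 and 356 against 303, 281 and 271 CPM and was not called (-0.12, adjusted p = 0.636). The markers Cd3e, Cd8a, Lck and Trbc2 were not called either, at -0.10, 0.23, 0.16 and -0.11. Of the 15 genes of the T cell receptor list, however, 1 rose and 2 fell, against 5.6% and 6.05% of all genes. Cd8b1 lay between -0.54 and -0.40 over 14 settings and was called in all 14. Cd3d lay between -0.41 and -0.33 and was called in 9 of them.

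Transcripts of immunoglobulin chains rose in cells labelled T. Igkc was at 1.43, 3.03 and 0.17 CPM in control and 47.4, 17.7 and 25.6 CPM in CAL-101 mice (4.38 ± 0.55, adjusted p = 0.000722). Ighm was at 17.6, 12.1 and 17.4 against 70.3, 54.4 and 62.3 CPM (1.93 ± 0.15, adjusted p = 4.6e-05), and Jchain rose by 4.12. All 3 B and plasma cell genes tested were called higher, where 5.6% of all genes were, and the list summed to 20 to 24.3 CPM in control and 85.4 to 132 CPM in CAL-101 mice, with Iglc2 at 0. In neutrophils Ighm stood at 19.6 and 85.9 CPM, about the level of cluster 1 in each group, and Igkc at 0.85 and 10.7 CPM. The part of free RNA in these changes was not tested.

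Ribosomal protein and cell division genes shifted by smaller amounts. Of 83 ribosomal protein genes 65 fell and none rose, with a median of -0.43, where 6.05% of all genes fell, led by Rpl29 (1138, 850 and 1126 against 600.3, 625 and 595 CPM, -0.80 ± 0.11, adjusted p = 0.00115). That count rested on single libraries: 9 fell without control mouse 1, 76 without control mouse 2, 11 without control mouse 3, 33 without CAL-101 mouse 1, 39 without CAL-101 mouse 2 and 7 without CAL-101 mouse 3. Of 19 proliferation genes 11 rose and none fell (median 0.47), where 5.6% of all genes rose, with Pclaf, a partner of the replication clamp, at 32.1, 38.6 and 42.9 against 62.1, 69.2 and 73.1 CPM (0.81 ± 0.12, adjusted p = 0.00175), although 3 rose without control mouse 1 or without CAL-101 mouse 2. In neutrophils Pclaf stood at 31.5 CPM in control and 59.1 CPM in CAL-101 mice (37 and 22 UMIs), near the levels of cluster 1. The part of free RNA in its rise was not tested. None of the 13 mitochondrial genes was called, with a median of 0.24.

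Stress genes also moved. The tissue had been dissociated with enzymes, and the part of that step in the difference between groups was not tested. Of 16 dissociation and heat shock genes 7 rose and 2 fell, with a median of 0.21, against 5.6% and 6.05% of all genes. The chaperone gene Hsph1 was at 51.9, 29.5 and 39.8 against 104, 102 and 89.2 CPM (1.25 ± 0.16, adjusted p = 0.000654), and the cold-inducible Rbm3 was at 631, 485 and 705 against 391, 380.3 and 349 CPM (-0.73 ± 0.12, adjusted p = 0.00361). Both separated the groups.

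**Figure D3:**
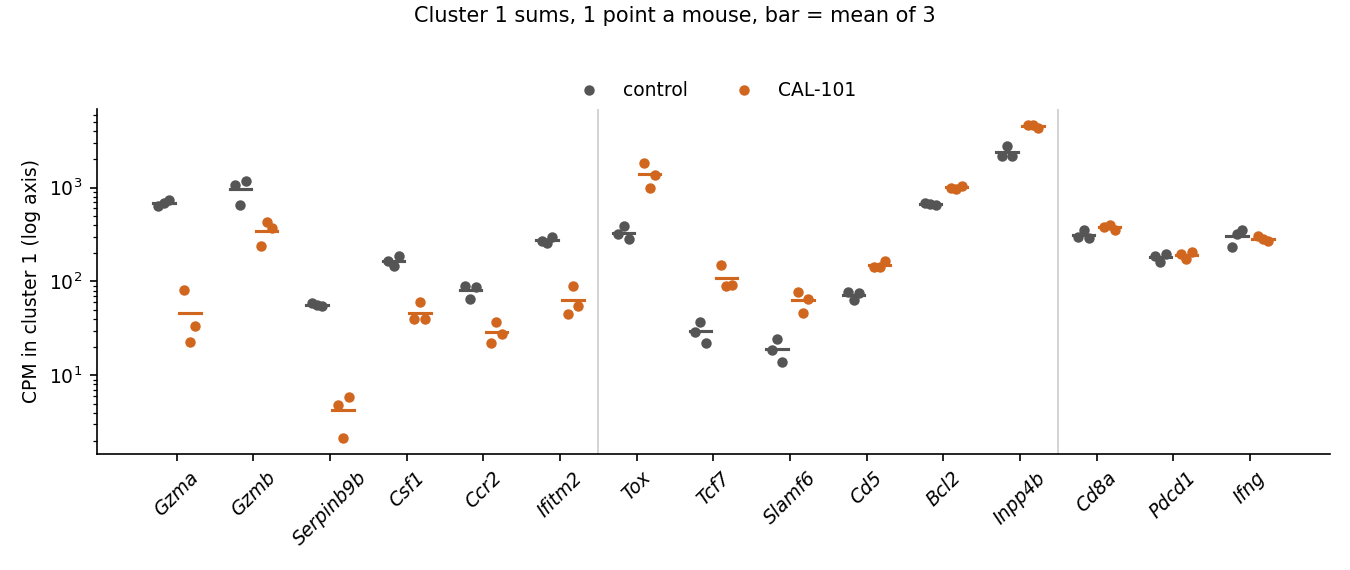
CPM (log axis) of 15 genes in the summed cells of cluster 1, with 1 point a mouse and a bar at the mean of 3, control and CAL-101 side by side. The first 6 genes fell and the next 6 rose with no overlap between groups, and Cd8a, Pdcd1 and Ifng were not called.

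The antibody panel gave a second readout of the same cells. Each antibody is counted through a DNA barcode of 15 bases, and the barcodes of 5 antibodies that carry the main protein differences are shown 5′ to 3′ so that each count can be traced to its reagent.
CD357: ggcactctgtaacat
CD44: tggcttcaggtccta
CD73: acacttaacgtctgg
Ly108: cgattctttgcgagt
CD5: cagctcagtgtgttg

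CAL-101 changed 23 of 102 antibodies (22.5%), with 9 higher (8.82%) and 14 lower (13.7%), and 56.9% did not overlap between groups. In clusters 2 to 5 16.7% were called, 5.88% higher and 10.8% lower. None of the 7 isotype controls was called. CD357, the GITR protein, took 5.65%, 7.22% and 6.0% of tags in control and 2.79%, 2.48% and 2.44% in CAL-101 mice (log2 -1.45 ± 0.13 SE, adjusted p = 0.00219). CD44, a receptor for hyaluronan that is high on antigen-experienced T cells, took 5.75%, 6.65% and 5.90% against 4.69%, 4.16% and 4.08% (-0.66 ± 0.11, adjusted p = 0.00849). Integrin chains fell as well, with CD49b at 0.459%, 0.293% and 0.472% against 0.167%, 0.180% and 0.175% (-1.39 ± 0.18, adjusted p = 0.00394).

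CD73, an enzyme that makes adenosine, rose from 0.125%, 0.160% and 0.123% to 0.551%, 0.460% and 0.391% (1.62 ± 0.18, adjusted p = 0.00239). CD5 rose from 1.17%, 1.05% and 1.08% to 2.00%, 2.03% and 2.18% (0.75 ± 0.09, adjusted p = 0.00239). The groups did not overlap for either protein.

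Ly108 rose from 0.066%, 0.072% and 0.055% to 0.171%, 0.121% and 0.147% (1.03 ± 0.18, adjusted p = 0.00849), where all control values lay under the highest isotype control at 0.083%. CD49d, an integrin chain used to enter tissue, rose by 0.67 and lost its call without CAL-101 mouse 3. PD-1 (CD279, 0.10), TIM-3 (CD366, -0.31), CD3 (0.22) and CD8a (-0.11) were not called, and TIM-3 was called at -0.48 without control mouse 2.

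Protein and RNA were set side by side for the genes of the 16 named antibodies, picked after the antibody values were seen. Of 15 genes tested 10 were called in RNA, all in the direction of the protein. Nt5e, the gene of CD73, went from 48.3 to 151 CPM (1.61) and Tnfrsf18 from 285 to 144 CPM (-1.02). Cd44 RNA was at 316 and 385 CPM (0.26, adjusted p = 0.104) while the CD44 protein fell.

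**Figure D4:**
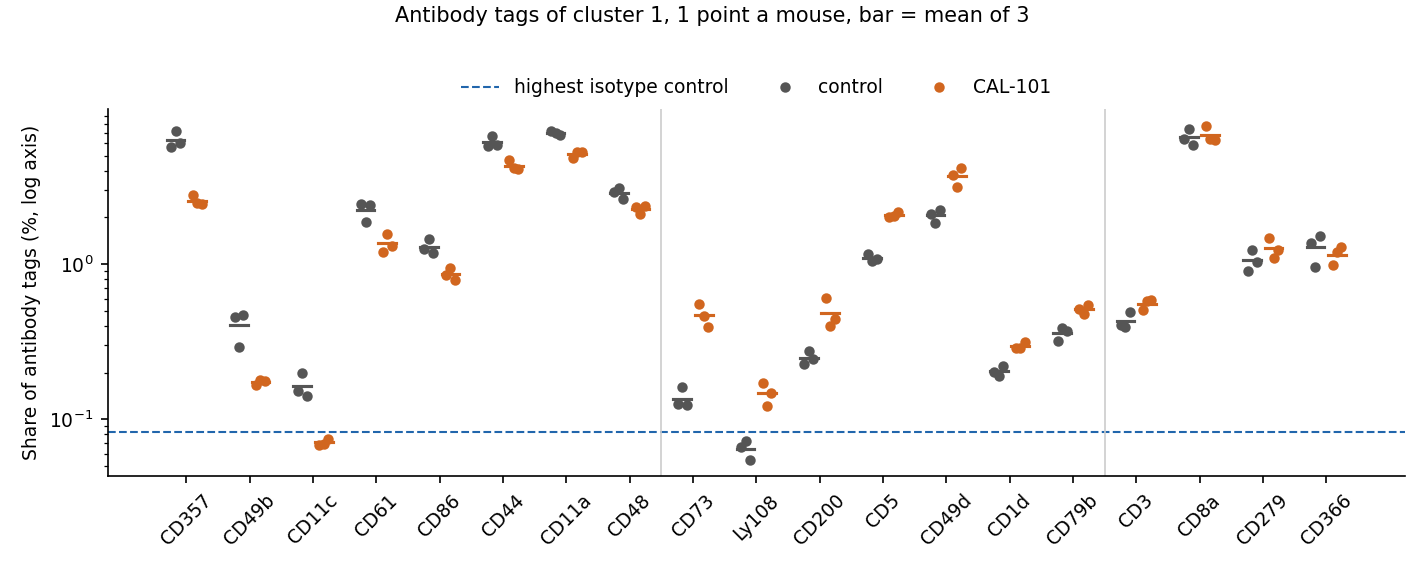
Share of antibody tags in percent (log axis) for 19 antibodies in cluster 1, with 1 point a mouse, a bar at the mean of 3 and a dashed line at the highest isotype control (0.083%). CD357 stood at 5.65% to 7.22% in control and 2.44% to 2.79% in CAL-101 mice, whereas CD8a and CD279 overlapped.

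Several named changes inside cluster 1 had like values in clusters 2 to 5, which come from the same mice. Tox was at 2.06 in cluster 1 and 2.01 in the sum of clusters 2 to 5, Gzma at -3.98 and -4.44, Cd5 at 1.02 and 1.03 and Bcl2 at 0.56 and 0.57. Gzmb was at -1.51 in cluster 1 and at -1.27, -0.17, -1.35 and -0.60 in clusters 2, 3, 4 and 5 taken singly. A direct test of the difference of the effects, made with limma on log2 CPM of cluster 1 minus that of the sum of clusters 2 to 5 in each mouse, called 40 of 11509 genes (0.348%), with 22 higher (0.191%) and 18 lower (0.156%) in cluster 1. The same test called 0 of 102 antibodies (0.0%), with 20 at an unadjusted p under 0.05 and a smallest adjusted p of 0.246 in limma. Cell numbers of cluster 3 were lower and of cluster 5 higher in CAL-101 mice (edgeR log2 -1.94 and 3.2, adjusted p = 3.34e-07 and 1.03e-10), so that the sum of clusters 2 to 5 had another makeup in each group; with those clusters weighted equally limma called 143 genes.

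Interferon-induced genes were among the differences. Ifit3, an antiviral RNA-binding protein gene, was at 29.8, 13.6 and 20.5 CPM in control and 19.2, 23.7 and 16.1 CPM in CAL-101 mice inside cluster 1, where the groups overlapped. In clusters 2 to 5 it was at 13, 8.5 and 8.4 against 29.2, 29.7 and 16.1 CPM, without overlap. The difference of the effects was -1.34 ± 0.17 (limma, adjusted p = 0.000711) and stayed called in all 10 settings tried, at -0.75 with clusters 2 to 5 weighted equally. Taken singly, its change was 1.27 in cluster 2, 0.62 in cluster 3, 0.63 in cluster 4 and 0.08 in cluster 5, called only in cluster 2. Ifit3 shares sequence with its near copy Ifit3b, so reads could be divided between them.

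Ifit1 and Isg15 were added after their values were seen. Ifit1 was at 22.1, 15.4 and 15.5 against 21.7, 20.8 and 15.8 CPM in cluster 1 and at 14.9, 11.1 and 10.1 against 31.4, 35.0 and 21.4 CPM in clusters 2 to 5, a difference of -1.12 ± 0.15 (limma, adjusted p = 0.000711) that was called in all 10 settings. Isg15, a ubiquitin-like protein gene, was at 99.6, 68.4 and 95 against 81.6, 116 and 73.7 CPM in cluster 1 and at 151, 116 and 122 against 195, 246 and 156 CPM in clusters 2 to 5, a difference of -0.55 (limma, adjusted p = 0.017) that was called in 5 of 10 settings and not with clusters 2 to 5 weighted equally or without control mouse 1, control mouse 3, CAL-101 mouse 1 or CAL-101 mouse 3. Neutrophils held far more of these RNAs, with Ifit3 at 523 and 677 CPM, Ifit1 at 939 and 773 CPM and Isg15 at 2240 and 3089 CPM in control and CAL-101 mice, and the part of free RNA in cells of low UMI number was not tested. Over the whole interferon list 5 of 17 genes rose inside cluster 1 and none fell (median 0.13), where 5.6% of all genes rose. In the sum of clusters 2 to 5 11 rose (median 0.78), where 8.23% of all genes rose, and in clusters 2, 3, 4 and 5 taken singly 8, 3, 3 and 1 rose, with medians of 0.80, 0.58, 0.59 and 0.15. Cluster 1 therefore lay between these clusters in its count and at the level of cluster 5 in its median. Usp18, a negative regulator of interferon signalling, was among the 5 that rose (45, 31.1 and 34.2 against 67.7, 72.9 and 57.5 CPM, 0.82 ± 0.14, adjusted p = 0.00375).

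The promoters of these 3 genes are shown because interferon-induced genes are read from an interferon-stimulated response element, whose core was searched as GAAANNGAAA on both strands. They are RefSeq GRCm38.p6 sequences from 250 bases before to 50 bases after the start, read along the gene's strand, with matches in capitals. The Ifit1 window is chr19:34640639-34640938 on the plus strand, Ifit3 is chr19:34583279-34583578 on the plus strand and Isg15 is chr4:156200769-156201068 on the minus strand.
Ifit1: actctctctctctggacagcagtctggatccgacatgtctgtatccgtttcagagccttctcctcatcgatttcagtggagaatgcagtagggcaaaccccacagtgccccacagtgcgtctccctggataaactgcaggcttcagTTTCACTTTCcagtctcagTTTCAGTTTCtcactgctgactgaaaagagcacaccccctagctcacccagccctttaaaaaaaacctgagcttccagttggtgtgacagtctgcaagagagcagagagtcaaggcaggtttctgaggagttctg
Ifit3: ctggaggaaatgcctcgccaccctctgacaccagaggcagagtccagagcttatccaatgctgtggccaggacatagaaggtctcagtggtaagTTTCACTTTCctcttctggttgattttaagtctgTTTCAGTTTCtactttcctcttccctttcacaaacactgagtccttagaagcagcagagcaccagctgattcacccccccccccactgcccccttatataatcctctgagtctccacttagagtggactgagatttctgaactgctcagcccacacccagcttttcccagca
Isg15: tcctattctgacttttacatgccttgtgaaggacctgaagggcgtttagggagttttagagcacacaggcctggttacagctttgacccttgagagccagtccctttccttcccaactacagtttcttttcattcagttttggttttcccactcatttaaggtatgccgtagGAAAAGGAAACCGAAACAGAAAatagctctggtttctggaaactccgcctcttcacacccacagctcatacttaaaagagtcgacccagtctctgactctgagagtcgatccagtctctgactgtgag

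Ifit1 held 2 matches, Ifit3 held 2 and Isg15 held 3 that overlap one another. The motif was in 1079 of 27025 RefSeq promoter windows of this length (3.99%) and in 7 of the 12 interferon list genes that have one (58.3%). A match describes the letters and is no evidence of binding.

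Among the named genes the largest positive differences were those of Sorcs1 (1.16), the numbered gene Gm6093 (1.12), Dapl1 (0.87) and the histone gene Hist1h2bc (0.85), by limma. Hist1h2bc did not rise in cluster 1, at 24.3, 19.4 and 26.3 CPM in control and 22.3, 19.4 and 25.3 CPM in CAL-101 mice. In clusters 2 to 5 it was lower in CAL-101 mice, at 47.1, 33.6 and 51.6 against 23.8, 22.2 and 24.3 CPM. Sorcs1, a sortilin family receptor gene, was at 12.1, 23.5 and 10.2 CPM in control and 55.6, 40.6 and 37.0 CPM in CAL-101 mice inside cluster 1, and at 16, 12.7 and 9.56 against 18.3, 20.1 and 13.2 CPM in clusters 2 to 5. Its difference was called in 6 of 10 settings and was lost without control mouse 1, control mouse 3, CAL-101 mouse 1 or CAL-101 mouse 3. Differences were negative for the chemokine receptor genes Cxcr3 and Cxcr6. The rise of Cxcr3 was 1.21 in cluster 1 and 2.00 in clusters 2 to 5, a difference of -0.81 (limma). In clusters 2, 3, 4 and 5 taken singly Cxcr3 rose by 2.07, 1.64, 2.04 and 0.94, so the rise in cluster 5 was the smallest. Cxcr6, a chemokine receptor of tissue-resident T cells, was not called in cluster 1 and had a difference of -0.65 (limma). The fall of Ifitm2 was larger in cluster 1 by -0.58 (limma). These 3 differences and that of the numbered gene Gm26917 (0.67) were called in all 10 settings. Jun rose by 0.90 in cluster 1 and 0.43 in clusters 2 to 5, a difference of 0.45 that was called in 6 of 10 settings and was lost without control mouse 1, control mouse 3, CAL-101 mouse 1 or CAL-101 mouse 3. In clusters 2, 3, 4 and 5 taken singly Jun was at 0.30, 0.13, 0.52 and 0.79.

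**Figure D5:**
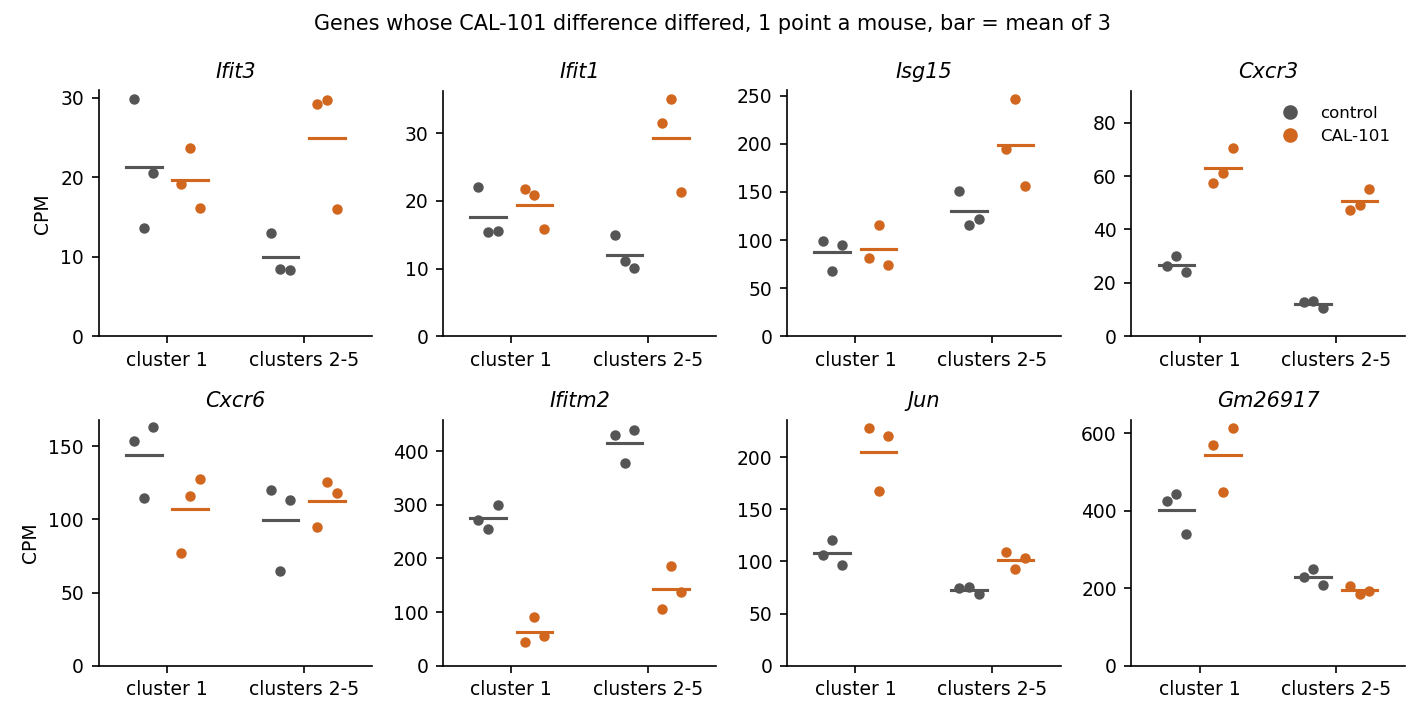
CPM of 8 genes in cluster 1 and in the sum of clusters 2 to 5 (horizontal axis), with 1 point a mouse and a bar at the mean of 3 for control and CAL-101 mice. Ifit3 and Ifit1 overlapped between groups in cluster 1 and not in clusters 2 to 5.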

How the data were processed

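RNA and surface protein libraries of 6 mice were analysed, 3 a group. The authors deposited UMI counts per cell for 32285 genes and 102 antibodies, which per the file headers came from Cell Ranger 7.1.0. The submitters' processing notes name the mm10 build and Seurat. Gene annotation, cell calling, cell filters and the labelling method: not given in the sources used here. Cells and labels were taken from the deposited annotation, no doublet caller was run, and pairs of libraries shared 8 to 31 cell barcodes.

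Median depth over all cells of a library was 6767 to 8977 UMIs. The raw counts of cluster 1 cells were summed for each mouse (3543056 to 5855182 RNA UMIs and 1592126 to 2815952 antibody tags). Groups were compared with edgeR 4.0.16 (R 4.3.3) by glmQLFit and glmQLFTest after TMM scaling and filterByExpr, and single measures by the exact permutation test over the 20 assignments of 6 mice (scipy 1.17.1). The difference of effects was tested with limma 3.58.1 on log2 CPM with a prior count of 2. Adjustment was by Benjamini-Hochberg over all features and the threshold was 0.05. CPM are of all UMIs of the sum. The fits were tested on simulated counts: changes of 2, 1 and 0.585 on the log2 scale were recovered in 100%, 89.8% and 50% of cases for cluster 1 with 4 false calls, and in 95.9%, 78.6% and 12% for the difference of effects with 5 false calls, over 11332 genes. The simulation gave every gene the same dispersion and drew the other clusters independently of cluster 1. It held no outlying mouse, so its rates may not hold for these data.

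Named genes were the 10 largest called changes each way with no overlap and at least 20 CPM in the higher group, up to 3 of each list by smallest p, and fixed markers; other named members of the lists were picked after their values were seen. Cluster 1 and the lists were chosen with earlier results of these data known. Alternatives were DESeq2 1.42.0, other scaling, filters on genes and cells, thinned sums, a replicate block and leaving out each mouse. The labels do not say that replicate numbers pair mice. They do not name separate cultures either, so p-values measure the spread between these mice. 1 gene of the lists and its protein are counted but not reported here.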

Additional observations from a re-analysis of the deposited data

Results flagged for a closer look

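A direct test found that the effect of CAL-101 differed between cluster 1 and the sum of clusters 2 to 5 for 15 of the named genes (limma on per-mouse differences of log2 CPM, adjusted p under 0.05). The value of each is the effect in cluster 1 minus that in clusters 2 to 5 on the log2 scale. The effect was lower in cluster 1 for Ifit3 (-1.34), Cxcr3 (-0.81), Cxcr6 (-0.65), Ccr2 (-0.59), Ifitm2 (-0.58), Fgl2 (-0.58), Tcf7 (-0.53) and Rpl29 (-0.44). It was higher for Sorcs1 (1.16), Gm6093 (1.12), Dapl1 (0.87), Hist1h2bc (0.85), Nrn1 (0.71), Gm26917 (0.67) and Jun (0.45). For Hist1h2bc the positive value reflects lower CPM in CAL-101 mice in clusters 2 to 5, without a rise in cluster 1.

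Ifit3, Cxcr3, Cxcr6, Ifitm2 and Gm26917 were called in all 10 settings and Gm6093 in 9. Ccr2 and Hist1h2bc were called in 7, Fgl2, Jun, Nrn1 and Sorcs1 in 6, Dapl1 and Tcf7 in 5, and Rpl29 in 3. The value of Tcf7 turned to 0.39 with clusters 2 to 5 weighted equally, and that of Dapl1 rose to 1.87.

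Dapl1, at 4.70, 22.0 and 4.10 CPM in control and 62.4, 38.5 and 39.2 CPM in CAL-101 mice inside cluster 1, rose by 2.25 (edgeR adjusted p = 0.0104), a call lost without control mouse 1 (1.91, adjusted p = 0.054) and with DESeq2 (2.14, adjusted p = 0.085). Over the 14 settings the value lay between 1.82 and 3.37, the highest without control mouse 2, which stood apart at 22.0 CPM.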

How the results depend on the processing

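Inside cluster 1 the 1341 called genes became 1690 without control mouse 2, 641 without control mouse 1, 623 without control mouse 3 and 926, 994 and 667 without CAL-101 mice 1 to 3 (623 to 1690; higher 292 to 804, lower 320 to 886). DESeq2 called 961 (422 higher), and testing every gene without a filter called 2008 (968 higher). Without cells over 10% mitochondrial or under 1000 UMIs, 797 genes were called (377 higher, 420 lower). The 23 called antibodies became 37 with DESeq2 (18 higher), 14 were higher without the 5% of cells with the most UMIs, and leaving out a mouse gave 12 to 26 (higher 3 to 11, lower 9 to 15). The 40 differences of effects became 143 with clusters 2 to 5 weighted equally (47 higher, 96 lower) and 9 to 282 when a mouse was left out (higher 2 to 63, lower 5 to 219; 282 without control mouse 2 and 12, 11, 21, 27 and 9 without control mice 1 and 3 and CAL-101 mice 1 to 3). Antibody differences were 6 with equal weights (3 higher, 3 lower) and 0 to 0 when a mouse was left out. Tcf7's difference turned to 0.39 with equal weights.

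The difference in the share of cluster 1 was 1.79 points over all cells of the mouse and -5.87 to -2.47 when a mouse was left out. When a mouse was left out, the difference in median RNA UMIs was -287 to 33.9, in genes -93 to 5.5 and in genes at 1600 UMIs -7.83 to 5.17, which was 7.83 without cells over 10% mitochondrial or under 1000 UMIs. Of the genes 2-fold apart from clusters 2 to 5, 126 were higher and 355 lower with equal weights, and 452 higher without the cells just named. The cause of these shifts was not tested.

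The deviations of same-numbered mice from their group means had correlations of -0.165, -0.182 and 0.0739. With so few mice these values cannot decide whether the numbers pair mice. A replicate block gave 820 genes (413 higher, 407 lower), 13 antibodies (7 lower), 53 differences of effects and the same share difference of -3.79. Control mouse 2 stood apart, at 8.60 and 10.5 times the sampling noise from control mice 1 and 3 (chi-square over its degrees of freedom), against 2.07 between those.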
